A study of Mus musculus with 12 samples.

Results

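The genes described here encode the kinetochore, the spindle assembly checkpoint and the chromosomal passenger complex with its Aurora kinases and the shugoshins. They were chosen by name, 37 in all. No measured value served as a filter, but earlier results of these data were known when they were chosen. Of these, 36 were matched through the platform's gene symbols, among 18163 genes with a symbol of their own on the array. Cenpc1, Sgol1 and Sgol2 were matched where needed through the newer spellings Cenpc, Sgo1 and Sgo2a. Casc5 carries the symbol Knl1 on this platform, which the rule did not list. Its values are given, and it enters no count.

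RNA was measured in mouse 2-cell embryos with Affymetrix chips, 12 in all, in 4 groups of 3. The Oct4-MO embryos had received at the 1-cell stage a morpholino oligonucleotide (MO), a synthetic antisense oligomer, aimed at the translational start site of Oct4. Ccna2-MO embryos had received one aimed at the 5' untranslated region of Ccna2, which encodes cyclin A2. The labels give 0.6 mM for both, while the study's methods name a higher concentration for Ccna2-MO. Each injected pool had its own uninjected pool from the same collection, cultured beside it, so there were 3 uninjected pools in the Oct4 experiment and 3 in the Ccna2 experiment. All embryos came from wild-type F1 (C57BL6xDBA/2) females, 3 to 5 weeks old, superovulated and mated with wild-type males. A pool of 20 embryos was extracted for each array, and RNA equal to 10 of them went through 2 rounds of amplification. An MO blocks translation and need not change the level of its target RNA, so these arrays do not measure the knockdown. No array held embryos injected with a control MO. Within either knockdown, injection and the loss of the target cannot be told apart, while the difference between the knockdowns, also tested, leaves out what both injections share.

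The kinetochore is the protein structure by which a chromosome holds spindle microtubules. CENP-A nucleosomes and the CENP network mark the centromere, the Ndc80, Mis12 and Knl1 complexes bind microtubules, and an outer corona captures them. Checkpoint kinases and their partners on unattached kinetochores delay anaphase, the passenger complex with Aurora B releases faulty attachments, and shugoshins protect cohesin between sister centromeres. Fertilised mouse eggs begin with transcripts and proteins of this machinery laid down in the oocyte, and the 2-cell stage is when much maternal RNA is lost and the embryonic genome becomes active.

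Values are array intensities in arbitrary units, normalised by the authors. They were compared as log2(intensity + 16), and a log2 fold change is always on that scale, which shrinks the changes of dim probe sets, and is given ± its standard error (SE). A gene is represented by its brightest probe set, and a call is a Benjamini-Hochberg adjusted p under 0.05 from limma over all 44937 probe sets. The median probe set of an array read 22.7 to 25.5, and 39.3 to 42.7% of them were below 16. The brightest probe sets of 8 members have names that mark probes shared by several transcripts (Cenpn, Cenpo, Bub1b, Bub3, Aurkb and Cdca8) or resembling other transcripts (Pmf1 and Incenp).

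All 11 measured markers of oocytes and early embryos had medians of 16 or more over the 12 arrays. Their summed intensity was 14337 to 16011 in Oct4-MO embryos and 15084 to 15516 in their uninjected pools, and 16337 to 19169 in Ccna2-MO embryos and 16961 to 18027 in theirs. One of them, Zar1, a maternal factor, rose in Ccna2-MO embryos (log2 fold change 2.19, adjusted p = 0.033 from limma) and had 1.85 in Oct4-MO embryos (adjusted p = 0.12). It passed in 15 of 23 alternative settings and did not pass in 8 (adjusted p 0.012 to 0.43 over all 23). These 8 included the fits without any 1 Ccna2-NI array, without Ccna2-MO pool 2 and without Oct4-NI pool 1 or 3 (0.052 to 0.12). Of 10 measured cumulus and granulosa markers, 8 had medians under 16. Their summed intensity was 389 to 619 in Oct4-MO embryos and 214 to 302 in their uninjected pools, and 312 to 422 in Ccna2-MO embryos and 172 to 326 in theirs. None of the 10 passed, and 7 of their log2 fold changes were above 0 and 3 below in each knockdown. Cyp11a1, the steroidogenic side-chain cleavage enzyme, ranged between 12.5 and 442 over the arrays, with a log2 fold change of 1.24 in Oct4-MO embryos (adjusted p = 0.51) and of 1.65 in Ccna2-MO embryos (adjusted p = 0.18). Without it the sum was 131 to 177 in Oct4-MO embryos and 107 to 125 in their uninjected pools, and 128 to 212 in Ccna2-MO embryos and 117 to 225 in theirs. The summed intensity of 6 sperm markers was 330 to 364 in Oct4-MO embryos against 242 to 290 in their uninjected pools, and 224 to 304 in Ccna2-MO embryos against 206 to 248. None of the 6 passed, and 4 of their log2 fold changes were above 0 and 2 below in each knockdown. Prm1 ranged between 112 and 260 over the arrays, and the other 5 stayed under 100. Whether such cells or their RNA had a part in the results was not tested. For cumulus, granulosa or sperm cells in a pool, fewer cells and less RNA per cell cannot be told apart.

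Promoter sequences of the members are shown because many genes of this machinery carry a short element named the cell cycle genes homology region, with the core TTTGAA, and CCAAT boxes near it. RefSeq (GRCm38.p6) promoters of 250 bases before to 50 after each start were searched on both strands for TTTGAA and for CCAAT. Of 36 members 32 had a promoter in the table, with 37 start sites. TTTGAA was present in 13 of these 37 promoters (35.1%), against 17.9% of all 32851 promoters. CCAAT was present in 27 of 37 (73.0%), against 37.4% of all promoters. The windows below, 30 bases each, are for some of the members whose values in Ccna2-MO embryos are given in full. They were chosen for a TTTGAA match, and members without such a match were left out, except Cenpe, shown for a CCAAT match. Capitals mark the match for which a window was chosen (TTCAAA is TTTGAA on the other strand). Other matches stay in lower case, such as a CCAAT in the Bub3 window and its reverse, ATTGG, in that of Cenpn. Positions count from the annotated start, whose first base is 1.
Cenpe (chr3:135212539-135212568, plus strand): acgctgcgccacCCAATccgctgcaacctt
Cenpf (chr1:189688067-189688096, minus strand): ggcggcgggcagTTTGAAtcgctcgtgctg
Spc25 (chr2:69206172-69206201, minus strand): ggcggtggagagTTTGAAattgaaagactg
Ndc80 (chr17:71526811-71526840, minus strand): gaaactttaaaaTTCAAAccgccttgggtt
Bub3 (chr7:131560315-131560344, plus strand): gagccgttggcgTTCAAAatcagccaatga
Aurka (chr2:172370521-172370550, minus strand): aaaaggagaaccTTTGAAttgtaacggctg
Cenpl (chr1:161070593-161070622, plus strand): acagctctgaggTTCAAAcccagacacaaa
Cenpn (chr8:116921719-116921748, plus strand): gccattggcggcTTCAAAagcacctcggcg
Ttk (chr9:83834684-83834713, plus strand): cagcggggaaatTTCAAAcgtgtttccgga
In Cenpe the capitals mark a CCAAT box beginning at position -12, and its promoter held no TTTGAA. In Cenpf the TTTGAA began at position 3, in Ttk at 8 and in Cenpn at -9. Cenpf fell in Ccna2-MO embryos, while Ttk and Cenpn had higher values there that did not pass. Among the members shown, TTTGAA matches thus occurred with lower and with higher values. A match is a description of the letters and not evidence of binding.

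Over the 12 arrays, 7 members had a median intensity of 1000 or more, 23 lay between 100 and 1000, 5 between 16 and 100, and 1, Nsl1, under 16. Of the 36 probe sets, 35 were among the 22468 brightest of the array by mean log2 value. The intensities of different probe sets are not set against each other, since each has its own response.

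**Figure D1:**
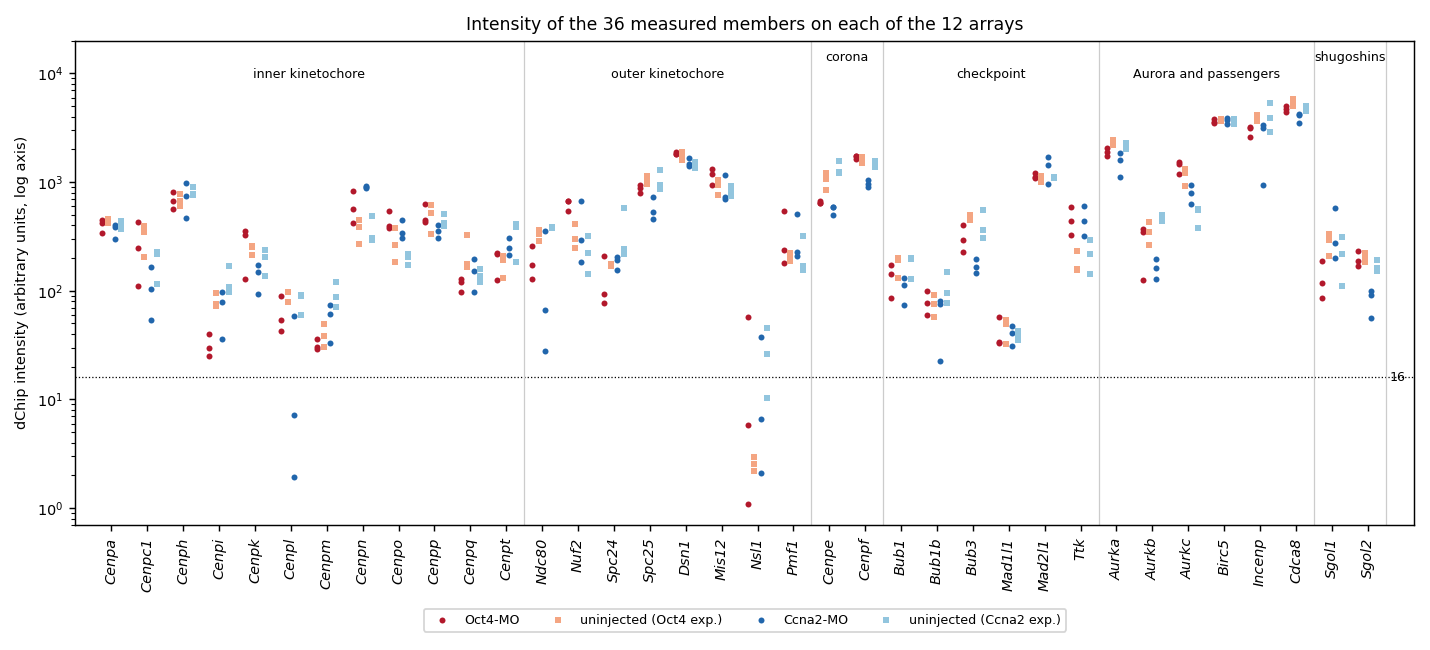
Intensity of each of the 36 measured members on each array (log axis, arbitrary units), grouped by role, with circles for injected and squares for uninjected pools and a dotted line at 16. Cenpl lay under the line on 2 Ccna2-MO arrays, and Nsl1 lay under it on 8 of the 12 arrays.

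In Ccna2-MO embryos 2 members fell and none rose. Both belong to the outermost kinetochore: Cenpe, the kinesin that carries chromosomes to the spindle equator, and Cenpf, a large coiled-coil protein that recruits dynein regulators. That was 2 of 36 members, where 0.93% of all 18163 genes were called, 0.468% lower and 0.462% higher. With the pair as a block the count was 1 (Cenpe). It was 0 to 4 when single arrays were left out, with 0 without uninjected pool 1 of the Ccna2 experiment and 4 without Ccna2-MO pool 3. Of 36 log2 fold changes 24 were below 0, against 46.8% of all genes, and their median was -0.38, against 0.03 over all genes. At an unadjusted p under 0.05, 4 members were higher and 12 lower, against 8.22% and 8.5% of all genes. The 3 injected and 3 uninjected arrays did not overlap for 4 members with higher and 11 with lower values, against 9.89% and 9.29% of all genes.

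In Oct4-MO embryos no member passed by limma, against 0.0936% of all genes called by limma (0.0275% higher and 0.0661% lower). At an unadjusted p under 0.05 from limma, 4 members were higher and 6 lower, against 4.66% and 5.96% of all genes. Of 36 log2 fold changes 21 were below 0, against 48.5% of all genes, and their median was -0.08, against 0.01. Arrays did not overlap for 2 members with higher and 9 with lower values, against 9.21% and 9.57% of all genes.

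**Figure D2:**
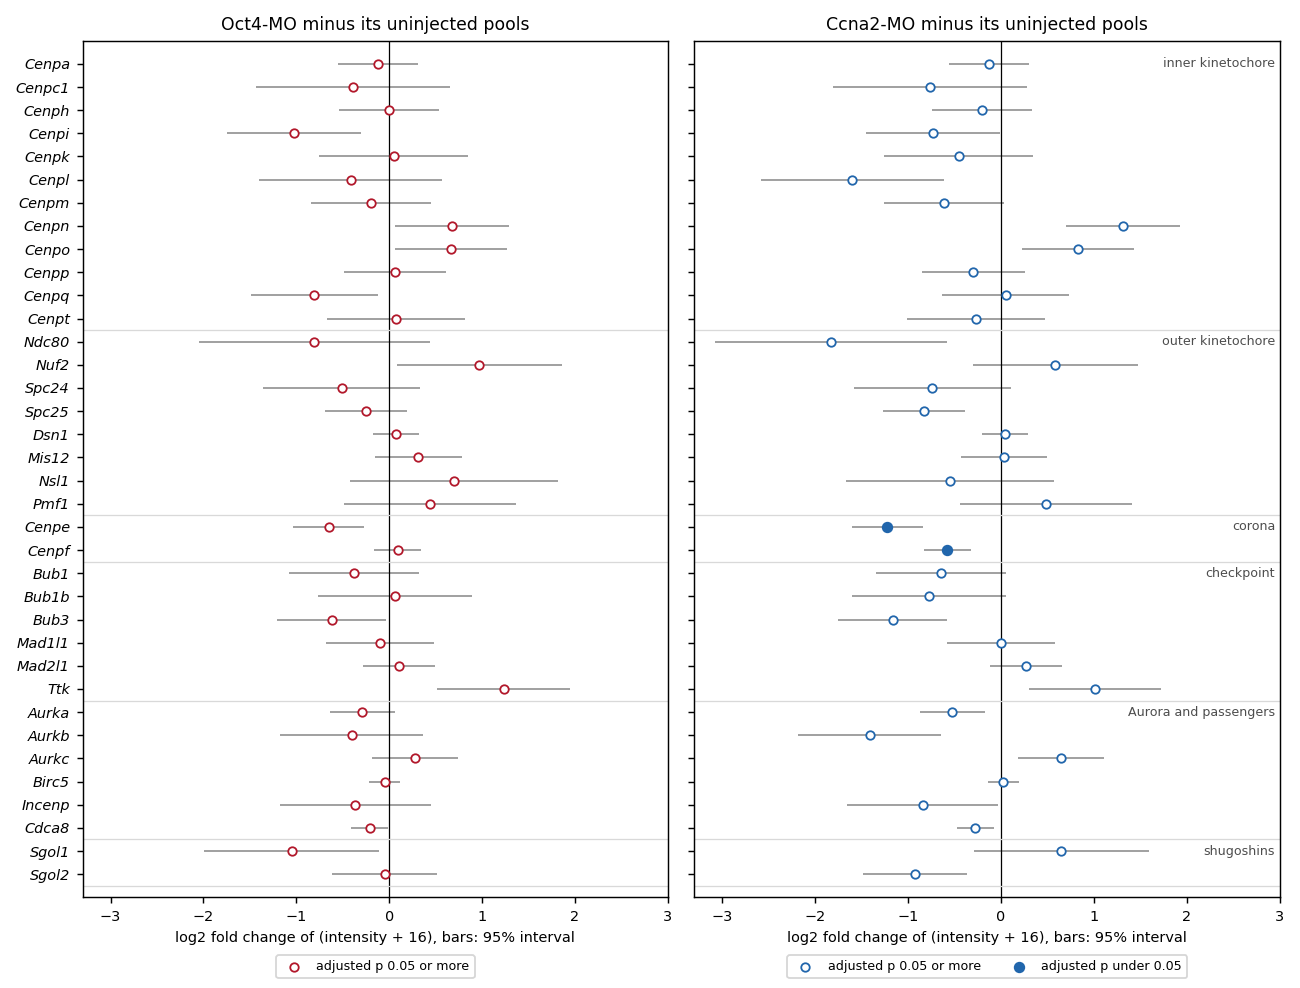
Log2 fold change of each member with its 95% interval in Oct4-MO embryos (left) and Ccna2-MO embryos (right), each against its own 3 uninjected pools. Filled points passed the test: only Cenpe (-1.22) and Cenpf (-0.58), both in Ccna2-MO embryos.

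Cenpe read 595, 593 and 496 in the 3 Ccna2-MO pools, against 1571, 1202 and 1244 in their uninjected pools. Every injected pool lay below every uninjected one. Its log2 fold change was -1.22 ± 0.17 SE (adjusted p = 0.014 from limma, lower in 3 of 3 pairs). In Oct4-MO embryos Cenpe read 638, 668 and 636, against 1063, 840.4 and 1209.8 in the uninjected pools. The groups did not overlap there either, and the injected pools lay close together, but the change did not pass (log2 fold change -0.65 ± 0.17 SE, adjusted p = 0.22). A second, dimmer Cenpe probe set read 387, 272 and 489.9 in Ccna2-MO embryos and 514, 309.6 and 922 in their uninjected pools. Its groups overlapped, and its log2 fold change of -0.49 did not pass (adjusted p = 0.57). Without the first uninjected pool of the Ccna2 experiment, which had the highest Cenpe value, the adjusted p was 0.077, and with only the 6 arrays of this experiment in the fit it was 0.15.

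Cenpf read 965, 1044 and 908 in Ccna2-MO embryos, against 1558, 1436 and 1385 in their uninjected pools. The groups were separated by a wide gap and each was tight. Its log2 fold change was -0.58 ± 0.12 SE (adjusted p = 0.044 from limma, lower in 3 of 3 pairs). The adjusted p was close to the threshold and was 0.075 with the pair as a block and 0.051 to 0.16 when any one of the 12 arrays was left out. In Oct4-MO embryos Cenpf read 1738, 1757 and 1619, against 1716, 1509 and 1578, and these overlapped (log2 fold change 0.09, adjusted p = 0.9). The next brightest Cenpf probe set had a log2 fold change of -0.55 in Ccna2-MO embryos (adjusted p = 0.33).

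**Figure D3:**
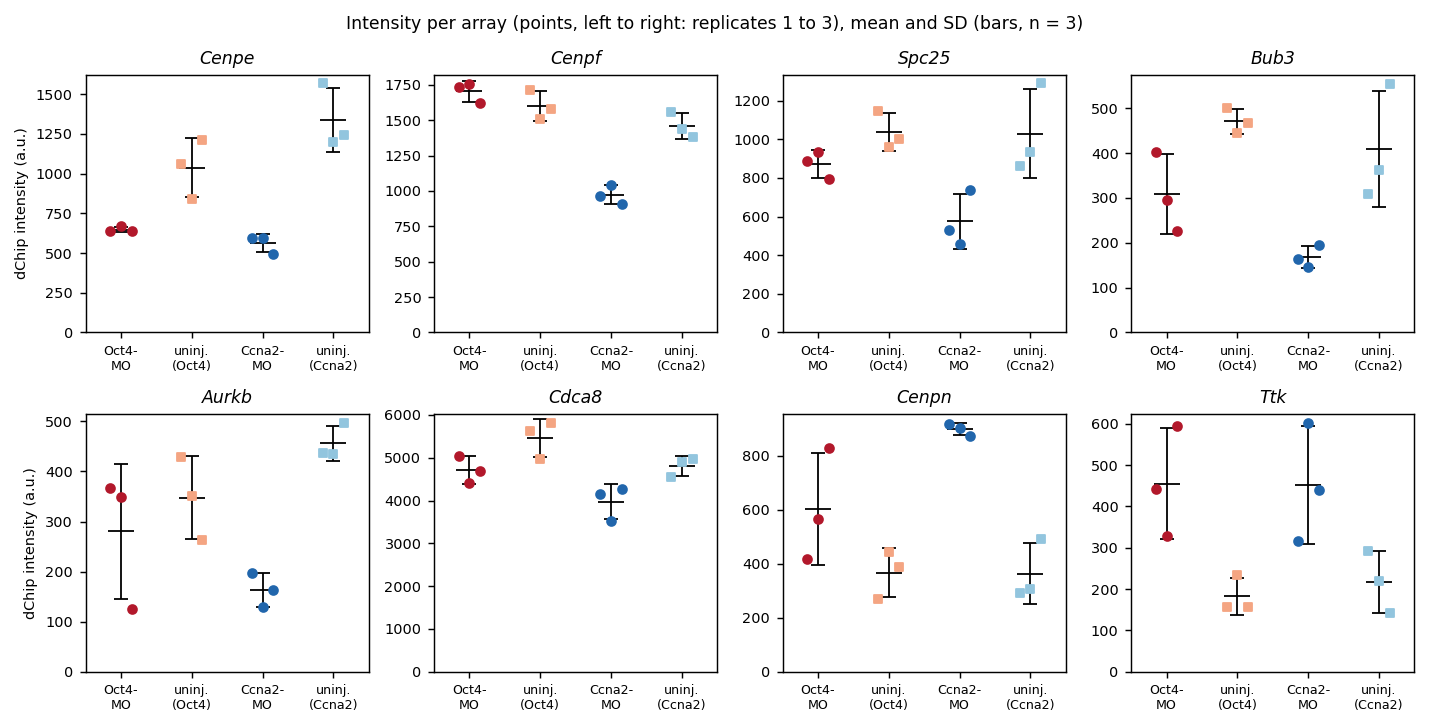
Intensities of 8 members on each array in arbitrary units, with the mean and SD of each group (n = 3). In Ccna2-MO embryos Cenpe (496 to 595) and Cenpf (908 to 1044) lay below all uninjected pools, while Cenpn (876 to 920) lay above those of its own experiment.

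Of the 12 members of the centromere base, none passed in either knockdown. The list had 3 log2 fold changes above 0 and 9 below in Ccna2-MO embryos (median -0.29), and 5 above and 7 below in Oct4-MO embryos (median -0.06). Cenpn, which reads the CENP-A nucleosome, read 920.3, 905 and 876 in Ccna2-MO embryos, against 292, 305 and 493 in their uninjected pools. The injected pools agreed within a narrow range well above the others, and the change just missed the threshold (log2 fold change 1.31 ± 0.28 SE, adjusted p = 0.056). Its second probe set read 957, 1024 and 729 in Ccna2-MO embryos and 303, 296 and 463 in their uninjected pools. That one passed (log2 fold change 1.33 ± 0.27 SE, adjusted p = 0.044), though its adjusted p was 0.039 to 0.16 when single arrays were left out and stayed under the threshold in 2 of 12 such fits. In Oct4-MO embryos Cenpn read 418, 568 and 829, against 269, 445 and 388. These overlapped (log2 fold change 0.67, adjusted p = 0.49).

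Cenpl, the partner of CENP-N in the network, read 7.25, 1.92 and 58.2 in Ccna2-MO embryos, against 60.4, 90.6 and 89.9 in their uninjected pools. The first and second injected pools were under 16 while the other was next to the lowest uninjected one (log2 fold change -1.60 ± 0.45 SE, adjusted p = 0.13). Cenpi, which joins the CENP-H/I/K module, read 29.8, 40.3 and 24.9 in Oct4-MO embryos, against 95, 74.9 and 72.4 in their uninjected pools. The groups did not overlap (log2 fold change -1.03 ± 0.33 SE, adjusted p = 0.32). In Ccna2-MO embryos it read 98.1, 36 and 79.5, against 167, 96.9 and 109, and these overlapped (log2 fold change -0.73, adjusted p = 0.35). Cenpo, another subunit of the network, had log2 fold changes of 0.82 in Ccna2-MO and 0.67 in Oct4-MO embryos (adjusted p = 0.19 and 0.48). Its next brightest probe set had 0.94 in Ccna2-MO and 1.10 in Oct4-MO embryos (adjusted p = 0.30 and 0.38 from limma). The arrays of that probe set did not overlap in the Oct4 experiment and overlapped in the Ccna2 experiment.

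The remaining members of this layer showed smaller differences or wider spread. Cenpa, the centromeric histone H3 variant, had log2 fold changes of -0.13 in Ccna2-MO and -0.12 in Oct4-MO embryos, with overlapping arrays in both. Cenpc1, which links the nucleosome to the Mis12 complex, ranged over 167, 53.3 and 105 in Ccna2-MO embryos and 117, 226 and 219 in their uninjected pools. Cenpq, a partner of Cenpo, read 97.2, 120.4 and 127 in Oct4-MO embryos, against 325, 176 and 165 in their uninjected pools. The injected values lay below the others, and the change did not pass (log2 fold change -0.81, adjusted p = 0.45), while in Ccna2-MO embryos its log2 fold change was 0.05. Cenph, Cenpk, Cenpm, Cenpp and Cenpt, further subunits of the network, overlapped in both knockdowns, with log2 fold changes of -0.61 to -0.21 in Ccna2-MO and -0.20 to 0.07 in Oct4-MO embryos.

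Of the 8 measured outer kinetochore members, none passed in either knockdown. Ndc80, the subunit that grips the microtubule, read 67.2, 28.1 and 357 in Ccna2-MO embryos, against 374, 377 and 382 in their uninjected pools. The uninjected pools were nearly identical, and a single injected pool, number 3, was almost as high as they were. The change did not pass (log2 fold change -1.83 ± 0.58 SE, adjusted p = 0.17), and without that pool it was -2.70 (adjusted p = 0.0098). When single arrays were left out it was -2.70 to -1.16 (adjusted p 0.0098 to 0.38). It passed in 1 of 12 such fits, the one without that pool. In that fit 652 of all probe sets passed, against 336 with no array left out. In Oct4-MO embryos Ndc80 read 256, 173 and 129, against 330.3, 289 and 359, all lower without passing (log2 fold change -0.81, adjusted p = 0.76).

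Spc25, which anchors the Ndc80 complex to the inner layer, read 528, 460.1 and 736 in Ccna2-MO embryos, against 863, 933 and 1293 in their uninjected pools. No injected pool reached the uninjected range (log2 fold change -0.83 ± 0.20 SE, adjusted p = 0.086). In Oct4-MO embryos it read 889, 934 and 794, against 1149, 963 and 1003, a narrow gap (log2 fold change -0.25, adjusted p = 0.81). Its partner Spc24 had log2 fold changes of -0.74 in Ccna2-MO and -0.51 in Oct4-MO embryos (adjusted p = 0.43 and 0.78). Nuf2, which pairs with Ndc80, had higher values in Oct4-MO embryos, with 674, 667 and 544 against 297, 414 and 246 in their uninjected pools. Those groups did not overlap, and the change did not pass (log2 fold change 0.97 ± 0.41 SE, adjusted p = 0.49). In Ccna2-MO embryos Nuf2 overlapped (log2 fold change 0.58, adjusted p = 0.57). The log2 fold changes of the 4 subunits of the Ndc80 complex had both signs in each knockdown.

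The Mis12 complex, which bridges the layers and is made of Mis12, Dsn1, Nsl1 and Pmf1, had no call. Dsn1 had log2 fold changes of 0.04 in Ccna2-MO embryos (95% interval -0.21 to 0.29) and 0.08 in Oct4-MO embryos (95% interval -0.17 to 0.32). Mis12 and Pmf1 overlapped in both knockdowns, with log2 fold changes of 0.03 and 0.48 in Ccna2-MO and 0.31 and 0.44 in Oct4-MO embryos. Nsl1 was too dim to compare, with 1.10 to 57.1 over the arrays.

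Knl1, the scaffold on which the checkpoint proteins Bub1 and Bub3 assemble and the gene named Casc5 in the list, was chosen for description after its values were seen. Its brighter probe set read 235, 259.6 and 221 in Ccna2-MO embryos, against 518, 426 and 723 in their uninjected pools. In Oct4-MO embryos it read 152, 165 and 126, against 368, 262 and 337 in theirs. Injected pools lay below uninjected ones in both experiments, and neither change passed (log2 fold change -1.14, adjusted p = 0.057 in Ccna2-MO, and -1.04, adjusted p = 0.15 in Oct4-MO embryos). The second Knl1 probe set had a log2 fold change of -0.32 in Ccna2-MO and -1.03 in Oct4-MO embryos (adjusted p = 0.69 and 0.26).

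None of the 6 checkpoint members passed in either knockdown. Ttk, the kinase Mps1 that starts checkpoint signalling, had higher values in both. It read 443, 328 and 596 in Oct4-MO embryos, against 157, 234 and 157 in their uninjected pools (log2 fold change 1.23 ± 0.33 SE, adjusted p = 0.21). In Ccna2-MO embryos it read 317, 601 and 439, against 291, 219 and 142 (log2 fold change 1.01 ± 0.33 SE, adjusted p = 0.18). Every injected pool exceeded every uninjected pool of its experiment, by a small margin in the Ccna2 experiment.

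Bub3, the adaptor that brings Bub1 and BubR1 to the kinetochore, read 164, 146 and 195 in Ccna2-MO embryos, against 309, 361 and 555 in their uninjected pools. Each injected pool was under the uninjected range (log2 fold change -1.17 ± 0.27 SE, adjusted p = 0.072). In Oct4-MO embryos it read 403, 296 and 225, against 499.6, 444 and 468, again without overlap (log2 fold change -0.62, adjusted p = 0.51). The next brightest Bub3 probe set did not share this direction. It read 93.9, 240.5 and 107 in Ccna2-MO embryos and 70.3, 97.3 and 86.6 in their uninjected pools (log2 fold change 0.60, adjusted p = 0.43). The direction of Bub3 therefore depended on the probe set. Bub1, a checkpoint kinase, and Bub1b, which encodes BubR1, had log2 fold changes of -0.65 and -0.78 in Ccna2-MO and -0.38 and 0.06 in Oct4-MO embryos, none passing. Mad2l1, the Mad2 protein that inhibits Cdc20, and Mad1l1, its kinetochore anchor, overlapped in both, with log2 fold changes of 0.27 and -0.0041 in Ccna2-MO and 0.11 and -0.10 in Oct4-MO embryos.

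Of the 6 Aurora kinases and passengers none passed in either knockdown by its brightest probe set. Aurkb, the kinase of the passenger complex, read 197, 129.5 and 163 in Ccna2-MO embryos, against 437, 434 and 497 in their uninjected pools. The highest injected pool was far under the lowest uninjected one (log2 fold change -1.41 ± 0.36 SE, adjusted p = 0.091). In Oct4-MO embryos Aurkb read 367, 349 and 125, against 429, 350.3 and 264, with injected pool 3 alone far below the rest (log2 fold change -0.40, adjusted p = 0.82). A second Aurkb probe set had -1.35 in Ccna2-MO embryos (adjusted p = 0.12). Like the brightest Incenp and Pmf1 probe sets, that one is marked as resembling other transcripts.

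Incenp, the scaffold that activates Aurora B, differed between its probe sets, and is described after its values were seen. The brightest, whose probes may match other transcripts, with 3376, 948 and 3180.1 in Ccna2-MO embryos and 2896, 3857 and 5345 in their uninjected pools, had injected pool 2 far below the rest (log2 fold change -0.84 ± 0.38 SE, adjusted p = 0.34). The next brightest probe set read 393, 237 and 218 in Ccna2-MO embryos, against 893, 816 and 921 in their uninjected pools. There all injected pools were far under every uninjected one, and this change passed (log2 fold change -1.62 ± 0.26 SE, adjusted p = 0.025). When single arrays were left out, it passed in 8 of 12 fits. In Oct4-MO embryos the same probe set read 568, 325 and 407, against 664, 579.9 and 476, which overlapped (log2 fold change -0.41, adjusted p = 0.7). Counting every probe set of the members, 4 of 72 passed in Ccna2-MO embryos, namely one each of Cenpe, Cenpf and Incenp lower and one of Cenpn higher. Among all 44937 probe sets 0.748% passed. In Oct4-MO embryos 0 of 72 passed, against 0.0734% of all probe sets.

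Cdca8, which encodes the passenger protein borealin, read 4152, 3510.4 and 4260.0 in Ccna2-MO embryos, against 4542, 4889.6 and 4979 in their uninjected pools. The difference was small and without overlap (log2 fold change -0.28 ± 0.09 SE, adjusted p = 0.18). In Oct4-MO embryos Cdca8 read 5052, 4399 and 4694, against 5623, 4969 and 5807, with a slight overlap (log2 fold change -0.21 ± 0.09 SE, adjusted p = 0.5). Its other probe sets had larger log2 fold changes of -0.50 and -1.08 in Ccna2-MO embryos (adjusted p = 0.058 and 0.061). In Oct4-MO embryos they had -0.38 and -0.51 (adjusted p = 0.26 and 0.55). Birc5, survivin, which docks the complex on chromatin, overlapped in both knockdowns, with 3859.6, 3721 and 3460.1 in Ccna2-MO embryos and 3392, 3821 and 3636 in their uninjected pools (log2 fold change 0.03, 95% interval -0.14 to 0.19). In Oct4-MO embryos its log2 fold change was -0.05 (95% interval -0.22 to 0.11).

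Aurka, the centrosomal Aurora kinase, read 1599, 1112 and 1871 in Ccna2-MO embryos, against 2021, 2169 and 2294 in their uninjected pools. The second injected pool was the lowest, and the groups did not overlap (log2 fold change -0.53 ± 0.16 SE, adjusted p = 0.15). In Oct4-MO embryos it read 2071, 1736 and 1894, against 2337, 2207 and 2431 (log2 fold change -0.29, adjusted p = 0.64). Aurkc, the germ-cell member that acts in oocyte meiosis, had higher values in Ccna2-MO embryos, with 932, 787 and 631 against 377, 555 and 562 in their uninjected pools. All injected pools were above all of these (log2 fold change 0.64 ± 0.21 SE, adjusted p = 0.19). In Oct4-MO embryos Aurkc overlapped (log2 fold change 0.28, adjusted p = 0.79).

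Among the shugoshins, Sgol2, which guards centromeric cohesin in oocyte meiosis, read 100.4, 90.6 and 56.6 in Ccna2-MO embryos, against 164, 191 and 151 in their uninjected pools. Injected pools lay below all uninjected ones without passing (log2 fold change -0.93 ± 0.26 SE, adjusted p = 0.12). In Oct4-MO embryos Sgol2 overlapped (log2 fold change -0.05, adjusted p = 0.98). Sgol1, the mitotic shugoshin, read 118, 186 and 86.5 in Oct4-MO embryos, against 209.7, 293 and 336 in their uninjected pools. The injected pools lay below the others (log2 fold change -1.05 ± 0.43 SE, adjusted p = 0.48). In Ccna2-MO embryos it read 278, 580.1 and 199, against 220.0, 309.6 and 111, and these overlapped (log2 fold change 0.65, adjusted p = 0.55). A second Sgol1 probe set had -0.51 in Ccna2-MO and -0.39 in Oct4-MO embryos, neither passing.

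**Figure D4:**
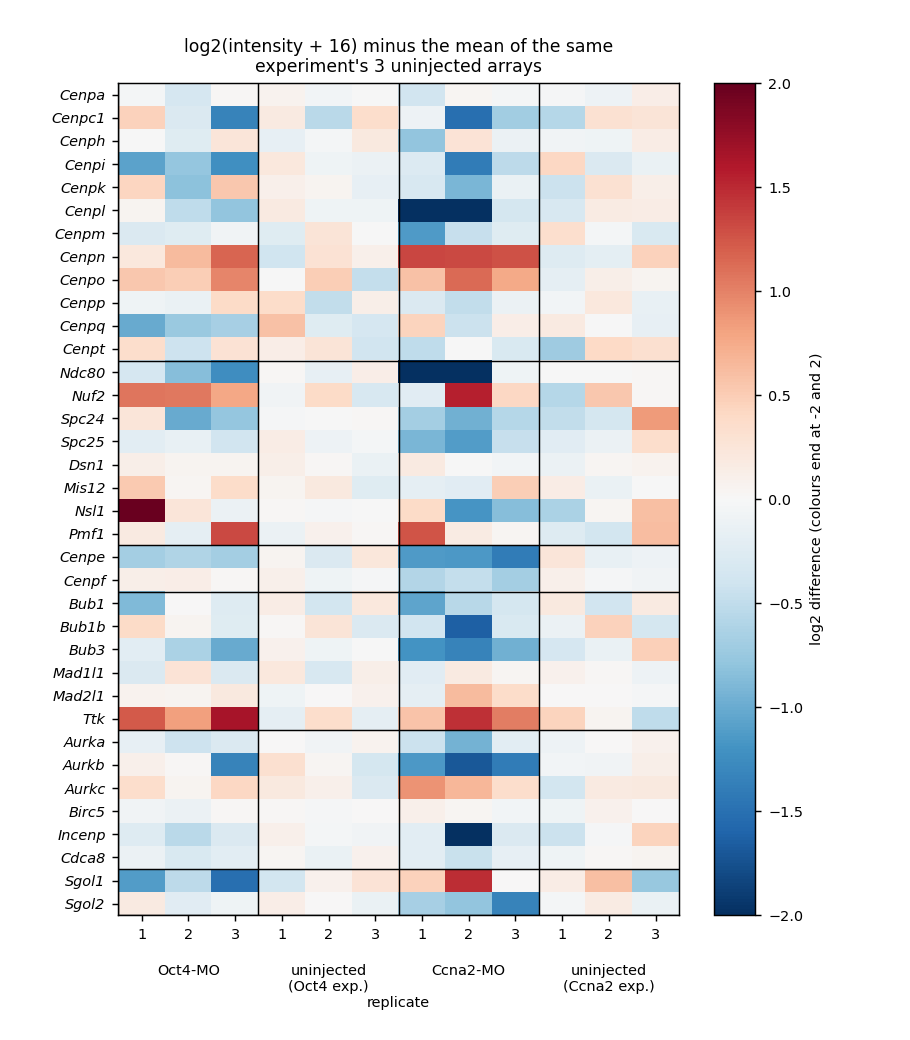
Each array's log2(intensity + 16) minus the mean of the 3 uninjected arrays of its experiment, for each member, with lower values in blue and higher in red. The Ccna2-MO columns are blue in all 3 pools for Cenpe, Cenpf, Aurkb, Bub3 and Sgol2 and red in all 3 for Cenpn, while Ndc80 and Cenpl are near 0 or only slightly blue in pool 3.

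The changes in Ccna2-MO embryos were set against those in Oct4-MO embryos by a test of the difference itself, which answers whether a member responded to one MO differently from the other. No member passed by limma, and none of all 18163 genes passed by the same test (0% called), so no change described above was shown to belong to one knockdown. At an unadjusted p under 0.05, 1 member had a higher difference and 3 a lower one, against 3.93% and 3.19% of all genes. The higher one was Sgol1 and the lower ones were Cenpf, Cenpe and Sgol2. For Cenpe the Ccna2-MO change minus the Oct4-MO change was -0.57 on the log2 scale (95% interval -1.11 to -0.04, adjusted p = 0.73), and for Sgol2 it was -0.88 (95% interval -1.68 to -0.08, adjusted p = 0.72).

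The uninjected pools of the Ccna2 experiment were also compared with those of the Oct4 experiment, to show how far members differed with no injection. No member passed by limma, against 0.116% of all genes. At an unadjusted p under 0.05, 3 were higher and 2 lower in the Ccna2 experiment, against 5.67% and 6.32% of all genes. The uninjected pools did not overlap for 6 members that were higher and 3 that were lower, against 10.4% and 12.3% of all genes. Aurkc read 377, 555 and 562 in the uninjected pools of the Ccna2 experiment and 1313, 1219 and 928 in those of the Oct4 experiment. No pool of the Ccna2 experiment came near the lowest of the other, although the difference did not pass (log2 fold change -1.19 ± 0.21 SE, adjusted p = 0.079). For Cenpe, whose call rests on its own uninjected pools, the log2 difference between experiments was 0.37 (adjusted p = 0.45). With all 6 uninjected pools as controls, Cenpe was also called in Oct4-MO embryos (log2 fold change -0.84, adjusted p = 0.041). That setting includes uninjected pools of the other experiment. In it 452 of all probe sets passed in Oct4-MO embryos, against 33 with their own uninjected pools.

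Other genes of chromosome segregation were counted from 5 lists. Of 23 measured other kinetochore, checkpoint and spindle genes, 1 fell and none rose in Ccna2-MO embryos, against 0.468% and 0.462% of all genes, and none passed in Oct4-MO embryos, against 0.0936%. The one was Tpx2, the spindle protein that activates Aurora A, with 501, 513 and 297 in Ccna2-MO embryos, against 973, 893 and 862 in their uninjected pools. All injected pools were well below the uninjected ones (log2 fold change -1.07 ± 0.21 SE, adjusted p = 0.042). The value was lower in all 23 alternative settings and passed in 9 of them (adjusted p 0.024 to 0.42). It did not pass with the pair as a block (0.065), nor without any 1 of the Ccna2-NI arrays (0.091 to 0.15). Mean Tpx2 intensity was 437 in Ccna2-MO and 422 in Oct4-MO embryos, against 909 and 591 in their uninjected pools. The uninjected pools of the 2 experiments differed by 0.61 on the log2 scale (adjusted p = 0.30 from limma). The Ccna2-MO change minus the Oct4-MO change was -0.60 (adjusted p = 0.77 from limma). The median log2 fold change of the list was -0.12 in Ccna2-MO and -0.04 in Oct4-MO embryos. In Oct4-MO embryos the smallest p was that of Zwint, a Knl1 partner, with 673, 575 and 504 against 349, 409.7 and 189.6 in their uninjected pools (log2 fold change 0.91 ± 0.32 SE, adjusted p = 0.36).

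No gene of the other 4 lists passed in either knockdown, against 0.93% of all genes in Ccna2-MO and 0.0936% in Oct4-MO embryos. Of 4 genes of CENP-A deposition, the smallest p in Ccna2-MO embryos was that of Oip5, a Mis18 subunit (log2 fold change -1.36 ± 0.36 SE, adjusted p = 0.11). In Oct4-MO embryos it was that of Mis18a, its partner subunit (log2 fold change -0.54 ± 0.18 SE, adjusted p = 0.32). Of 19 genes of the anaphase-promoting complex and its regulators, Anapc7, a scaffold subunit, had the smallest p in both. It read 102, 77.6 and 169 in Ccna2-MO embryos, against 374, 329 and 325 in their uninjected pools (log2 fold change -1.5 ± 0.37 SE, adjusted p = 0.085), and 218, 134 and 74.3 in Oct4-MO embryos, against 353, 287 and 205 in theirs (log2 fold change -0.99 ± 0.37 SE, adjusted p = 0.41). The Ccna2-MO values of Anapc7 did not reach the uninjected range, nor did those of the Oct4-MO pools except the first.

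Of 19 genes of cohesin and separase, the smallest p in Oct4-MO embryos was that of Stag2, a cohesin subunit, with 449, 362 and 221 against 1148, 778 and 1089.8 in their uninjected pools (log2 fold change -1.54 ± 0.34 SE, adjusted p = 0.13). In Ccna2-MO embryos it was that of Esco1, a cohesin acetyltransferase (log2 fold change -0.19 ± 0.07 SE, adjusted p = 0.21). Of 8 condensin genes, it was that of Smc4, a core ATPase, in Ccna2-MO embryos (log2 fold change -0.44 ± 0.13 SE, adjusted p = 0.15) and of Ncapg, a condensin I subunit, in Oct4-MO embryos (log2 fold change 0.53 ± 0.19 SE, adjusted p = 0.4). The median log2 fold change in Ccna2-MO embryos was -0.46 for CENP-A deposition, -0.21 for the anaphase-promoting complex, 0.05 for cohesin and -0.32 for condensin. In Oct4-MO embryos it was -0.30, -0.27, -0.17 and -0.23 for the same lists.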

How the data were processed

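RNA of pooled 2-cell embryos was measured on 12 Affymetrix arrays, 3 for each of 4 groups assigned from the labels. The authors normalised the arrays with dChip and deposited 1 linear intensity per probe set. No dChip version is given in the sources used here. After removal of 64 control probe sets, 44937 were analysed, of which 34849 had 1 gene symbol, 928 had several and were not named, and 9160 had none.

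Values were analysed as log2(intensity + 16) in R 4.3.3 with limma 3.58.1, as 1 model with 4 group means over all arrays and an intensity trend, Benjamini-Hochberg adjusted over all probe sets at 0.05. Steps were tested on simulated data. Precision is limited by the number of arrays (3 a group). Whether pools came from separate days is not stated, and p-values cover the spread between pools alone. The members, the lists of related genes and the rule for values given in full were chosen with earlier results of these data known. That rule takes members past 0.05 in any comparison, the smallest p of each role and knockdown, and members at an unadjusted p under 0.01. Cenpc1, Cenpq, Birc5, Aurkc, Incenp and Knl1 fall outside it, and their arrays were given after their values were seen. Related genes were named only when called or with the smallest p of their list.

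One promoter window is not reported here. Per the labels, an uninjected pool shares its collection of embryos with the injected pool of its number, and so the numbers pair the samples. Paired arrays' deviations from group means correlated at 0.083, 0.031 and 0.0091 in the Oct4 experiment and at -0.013, 0.084 and 0.11 in the Ccna2 experiment. Alternatives were the pair as a block, only the arrays compared, no intensity trend, 1 or 64 added, only the 22468 brightest probe sets, quantile normalisation, array weights, median centring, a plain unpaired t-test, all 6 uninjected arrays as controls, averaging over each gene's probe sets, and each array left out. The study ranked genes by fold change, logged fold change and an unpaired t-statistic together, with a permutation estimate of false discovery, which was not run here. Motifs were searched in RefSeq promoters.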

Additional observations from a re-analysis of the deposited data

Results flagged for a closer look

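For 2 members the difference ran one way in every pair of one knockdown and the opposite way in every pair of the other. Cenpf was lower in 3 of 3 pairs of Ccna2-MO embryos and higher in 3 of 3 pairs of Oct4-MO embryos, and the Ccna2-MO change minus the Oct4-MO change was -0.67 ± 0.16 SE on the log2 scale. The Oct4-MO pair differences were 0.018, 0.22 and 0.037, and the other Cenpf probe sets were higher in 2 and 1 of 3 Oct4-MO pairs and lower in 3 of 3 Ccna2-MO pairs. The test of the brightest probe set's difference did not pass (adjusted p = 0.52 from limma), nor did that of the other probe sets (-0.67 and -0.67, adjusted p = 0.77 and 0.8). Sgol1 was higher in 3 of 3 pairs of Ccna2-MO embryos and lower in 3 of 3 pairs of Oct4-MO embryos, a difference of 1.70 ± 0.61 SE (adjusted p = 0.68 from limma). The second Sgol1 probe set was lower in both, and its difference was -0.12 (adjusted p = 0.97).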

How the results depend on the processing

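Of the 2 members called lower in Ccna2-MO embryos, Cenpe alone remained with the pair as a block, with no intensity trend, with quantile normalisation, with median centring and with array weights (count 1 each). The count was 0 with only the arrays compared and with a plain unpaired t-test, by which 2 members were higher and 7 lower at an unadjusted p under 0.05. That t-test is not the ranking the study used. The count was 5 with only the 22468 brightest probe sets, where 711 probe sets passed and fewer tests are adjusted for. It was also 5 with all 6 uninjected arrays as controls, where 437 of all probe sets passed, against 336 in the fit reported above. In both these settings Cenpn was higher and Spc25, Cenpe, Cenpf and Bub3 were lower. When probe sets were averaged per gene the 2 calls were Cenpn higher and Cdca8 lower, and Cenpe was at -0.86 (adjusted p = 0.0505). In that setting 275 of all genes passed. Leaving out single arrays gave 0 to 4 calls, with 0 without Ccna2-NI replicate 1 and 4 without Ccna2-MO replicate 3 (Cenpl, Ndc80, Spc25 and Cenpe, all lower). Of all probe sets, 17 passed without the former array and 652 without the latter. Over 24 alternatives Cenpe was called in 20 (adjusted p 0.0082 to 0.33) and Cenpf in 4 (0.022 to 0.35), and both were lower in all 24. In Oct4-MO embryos the count was 1 (Cenpe) with all 6 uninjected arrays and 0 in the other alternatives, including every array left out. With all 6 uninjected arrays 452 of all probe sets passed there, against 33 in the fit reported above. Between the uninjected groups the count was 1 (Aurkc, lower in the Ccna2 experiment) with quantile normalisation and with array weights, and 0 in the others. With quantile normalisation 47 of all probe sets passed and with array weights 221, against 41 in the fit reported above. The difference between knockdowns gave 0 in each alternative run. It uses all 12 arrays, so a fit of only the arrays compared was not run for it, nor was the use of all 6 uninjected arrays. Among single results, which include Tpx2 and Zar1, 507 values kept direction and side of the threshold, 19 newly passed, 66 no longer passed and none reversed. The 507 include results that passed neither in the reported fit nor in the alternative. All 66 losses fell on results that had passed. They were 4 of 24 settings for Cenpe and 20 of 24 for Cenpf. Of 23 settings, 14 were lost for the second Cenpn probe set, 6 for that of Incenp, 14 for Tpx2 and 8 for Zar1. The causes were not tested. Dim probe sets (Nsl1, and Cenpl on 2 arrays) limit what could be measured.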
